A study of Danio rerio with 12 samples.

Results

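Chaperone and heat shock genes were followed in intact retina, lesioned retina and brain of adult zebrafish. They were taken by gene symbol, as every gene with a single platform symbol that begins with hsp, dnaj, cct and a digit, pdia, fkbp, hyou, canx or calr. This gave 77 of the 8793 genes with a single symbol on the array, covered by 89 of 15502 probe sets, and 1 probe set stood for each gene (the one with the highest mean retina signal). By the known place of the mammalian counterparts, 23 genes were put in the endoplasmic reticulum (ER) and 9 in mitochondria. The remaining 45 were put in the cytosol, which here includes the nucleus and membranes facing the cytosol. Among the DnaJ genes dnajb12a was put in the ER and dnajc18 in the cytosol. The study measured total RNA on 12 Affymetrix arrays: 1 of unlesioned brain, 1 of retina that the submitters call a true control, and 1 control and 1 lesioned retina at each of 2, 3, 5, 7 and 14 days post-lesion. Control and lesioned retinas came from matched animals, with at least 8 animals per condition in the design text. The labels do not state the strain, the sex, the kind of lesion or how many animals made up 1 array. The true control and the 5 day controls are together called the 6 intact retinas.

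Chaperones bind proteins that are not yet folded or have lost their fold, and keep them from clumping until they fold or are degraded. HSP70 proteins do this in cycles set by DnaJ partners, HSP90 proteins act on late folding steps of kinases and receptors, small heat shock proteins hold unfolding proteins without using ATP, and the chaperonins fold proteins inside a barrel. In the ER the HSP70 protein BiP, the lectins calnexin and calreticulin and the protein disulfide isomerases (PDI) fold secreted and membrane proteins. FKBP proteins are prolyl isomerases. Heat shock factor drives the cytosolic stress genes, the unfolded protein response drives those of the ER, and photoreceptors place a steady load on folding because they renew their outer segments.

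All values are the deposited signal intensities (linear) or differences in log2(signal + 50). Each day and tissue had 1 array, so the spread behind every p-value is that between arrays, part of which may be technical. In the lesion fit this spread includes how the matched difference varied between days. A response confined to 1 day thus widens the SE of its gene. Retina arrays matched their label: the summed signal of 3 rod genes was 56739.5 to 68899 in intact retinas and 687 in brain, and that of 5 brain genes was 3544 to 6882 and 54759.9. The arrays were split into 2 blocks of 6 at the widest gap in the GAPDH 5'/3' ratio, a measure of RNA integrity and labelling. Block 1 held brain, the true control and days 2 and 14, and block 2 held days 3, 5 and 7. By this split the ratio lay between 0.692 and 0.854 for block 1 arrays, and between 0.103 and 0.245 for the others. Hybridization controls, which the split did not use, averaged 3315 to 4052 in block 1 and 5632 to 8981 in block 2. The highest signals, also not used, were 29844.2 to 34083.5 and 56927.8 to 90586.4. Both arrays of a day shared a block, so matched lesion differences stayed within it. Within each pair, however, the lesioned array had the lower GAPDH ratio. On days 2, 3, 5, 7 and 14 it was 0.7523, 0.1031, 0.1573, 0.2055 and 0.8068, against 0.7705, 0.1579, 0.2001, 0.2451 and 0.8542 in controls. The lesioned array also had the higher median signal on each day, as on day 5 (152.1 against 137). The ratio was thus not balanced between lesioned and control arrays.

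In lesioned retina hspb1 and calr3a rose. The small heat shock protein hspb1, which also steadies actin filaments in mammals, had control signals of 524, 319.8, 414, 371 and 468 on days 2, 3, 5, 7 and 14. In lesioned retinas of the same days it read 1232, 906, 741, 513 and 609. Every lesioned array was above its own control and the day 2 array was the highest, but the groups overlapped because the lesioned array of day 7 lay under the control of day 2. The matched difference of hspb1 was largest on day 3 (1.37, against 1.16 on day 2). Its level in the true control retina was 636, above all 5 day controls and above the lesioned arrays of days 7 and 14. The fitted change was 0.81 ± 0.14 (log2, SE, n = 5 pairs; limma adjusted p = 0.00453), or 1.76-fold. It was 0.85 ± 0.17 within block 2 (adjusted p = 0.00332) and 0.75 ± 0.20 within block 1 (adjusted p = 0.428). With the GAPDH ratio of each array as a covariate it was 0.57 ± 0.22 (limma adjusted p = 0.526). In bulk tissue a change in the number of cells of a type and a change in RNA per cell cannot be told apart.

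The ER lectin gene calr3a, a calreticulin paralog, read 758, 1376, 1297, 1378 and 901 in controls and 1430.2, 2289, 1765, 1681 and 998 in lesioned retinas on the same 5 days. The lesioned array was higher on 5 of 5 days, by the most on day 2 and the least on day 14, while the groups overlapped across days. The fitted change was 0.49 ± 0.12 (SE, n = 5 pairs; limma adjusted p = 0.0284), or 1.40-fold. Its call was lost when day 2, 3, 5 or 7 was left out (adjusted p = 0.0689 to 0.122), and within block 2 it was 0.47 ± 0.15 and within block 1 0.51 ± 0.19 (adjusted p = 0.0780 and 0.540). With array medians set equal the fitted change was 0.41 ± 0.12 (limma adjusted p = 0.0622). With the GAPDH ratio of each array as a covariate it was 0.42 ± 0.19 (limma adjusted p = 0.647). Block 2 controls of calr3a were all above its block 1 controls.

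These were 2 of the 65 members past the filter on low signal, both up. The share was 3.08%, near the 4.1% of all 9301 probe sets tested that were called (3.56% up and 0.538% down). Before adjustment 18 of 65 members (27.7%) had p under 0.05, 14 up and 4 down, against 18.1% of all probe sets. Lesioned was above control on all 5 days for 11 members (16.9%; 9.32% of all probe sets) and below on all 5 days for 3 (4.62%; 7.2% of all). The 14 up and the 11 include fkbp9, which the filter kept through its lesioned mean alone. No member had all 5 lesioned retinas above all 5 controls, which 0.763% of all probe sets had. Without the pairing by day limma called 0 members, with 3 at an unadjusted p under 0.05. The share of all probe sets is given for neither count.

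**Figure D1:**
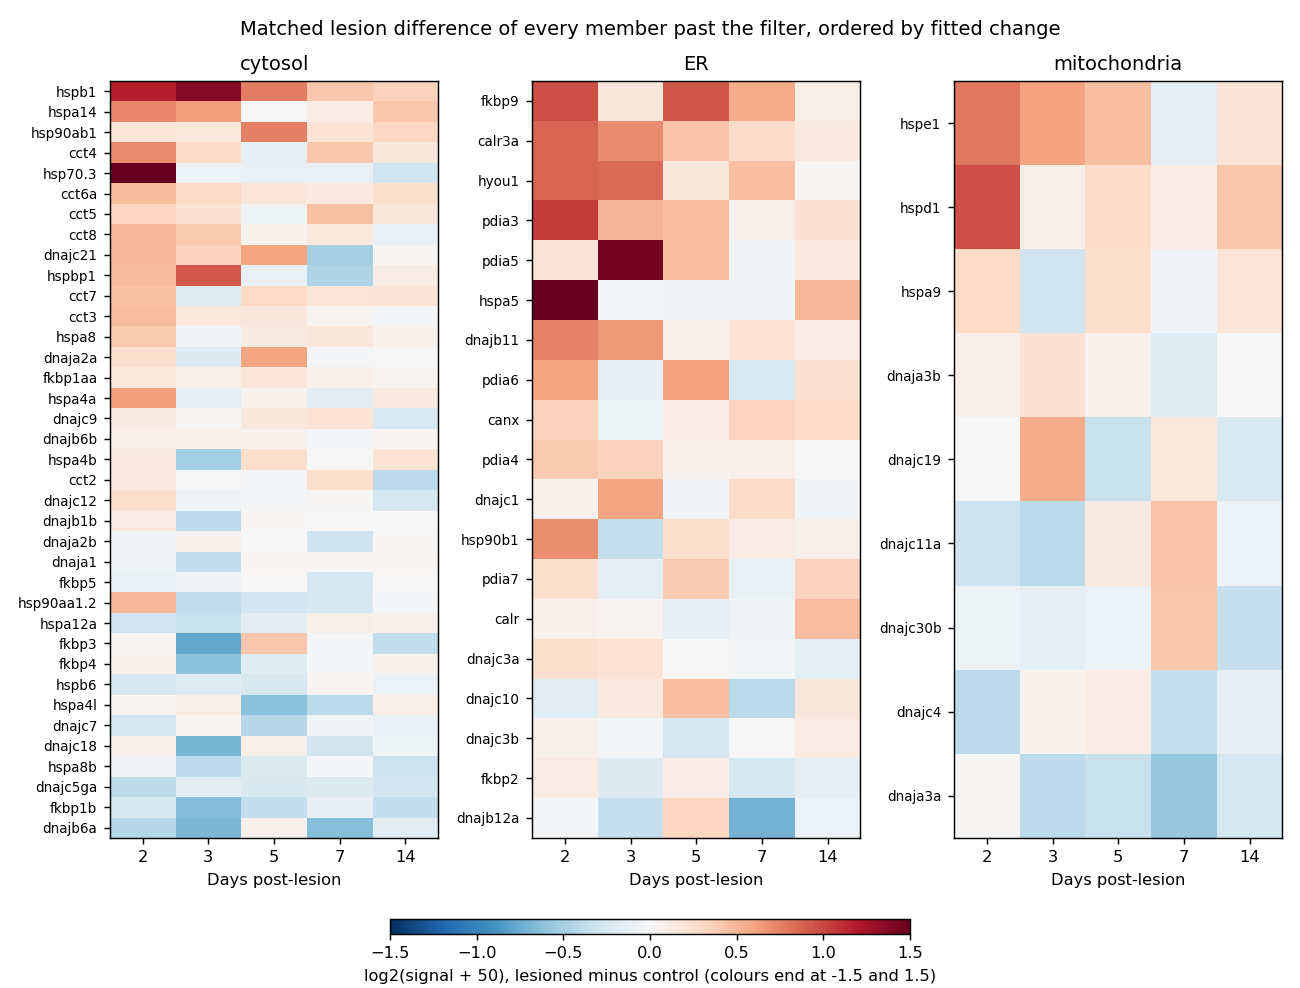
Matched difference in log2(signal + 50), lesioned minus control, of the 65 members past the filter (rows, by compartment and fitted change) on days 2, 3, 5, 7 and 14 (columns). Red is higher in the lesioned retina and blue lower, and colours end at 1.5, which hsp70.3 (1.95) and hspa5 (1.55) pass on day 2.

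Among cytosolic HSP70 genes the stress-inducible hsp70.3 stood apart on day 2. Its control signals were 108, 694, 645, 488 and 122 on days 2, 3, 5, 7 and 14, and its lesioned signals were 562, 652, 591, 448 and 90. The matched differences were 1.95 on day 2 and -0.09, -0.12, -0.11 and -0.30 on the later days, so the lesioned array was above its control on day 2 only. Controls of days 3, 5 and 7 thus read far above those of days 2 and 14, and the day 2 lesioned array was the 1 retina of block 1 in their range. The mean over days was 0.27 ± 0.24 (SE; limma adjusted p = 0.620), and its probe set is of the type that can hybridise with related genes. The mean over days was 0.37 ± 0.12 for hspa14, a ribosome-bound HSP70 in mammals (adjusted p = 0.113), and 0.14 ± 0.09 for the constitutive hspa8 (adjusted p = 0.467). Signals of hspa8 were 7190.2 to 11221 in controls and 9435 to 11879.6 in lesioned retinas. The paralog hspa8b was lower on all 5 days (fitted -0.20 ± 0.12, adjusted p = 0.427).

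The constitutive HSP90 gene hsp90ab1 read 6625, 5663, 6208, 9236 and 6629 in controls and 7497, 6347, 10541, 10625 and 8251 in lesioned retinas on days 2, 3, 5, 7 and 14. It was higher on each day, with a difference of 0.76 on day 5 and of 0.16 to 0.31 on the other days, and did not pass (0.32 ± 0.10, adjusted p = 0.0972). The paralog hsp90aa1.2 was at 0.49 on day 2 and between -0.36 and -0.02 later (fitted -0.08 ± 0.12). Its other probe set was at 0.32 on day 2 and between -0.17 and 0.13 later (fitted 0.09 ± 0.10), so the lower values after day 2 rest on 1 probe set. Paralogs this close may share hybridisation, so values of single HSP90 and HSP70 genes are uncertain.

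The subunits of CCT, the cytosolic chaperonin that folds actin and tubulin, moved together on day 2 in value but none was called. All 7 measured subunits (cct2 to cct8) were higher in the lesioned array on day 2, from 0.14 in cct2 to 0.71 in cct4, with a median of 0.46. A second, dim probe set of cct2 was at -0.27 on that day. On days 3, 5, 7 and 14 the number higher was 5, 4, 7 and 4, and the medians were 0.22, 0.055, 0.18 and 0.17. All 7 were also higher on day 2 when arrays were scaled by quantiles or to 1 median, whereas the day 5 median turned to -0.09 with medians set equal. The signal of cct4 was 1183, 2615, 2967, 2902 and 1223 in controls and 1963, 3181, 2726, 3853 and 1387 in lesioned retinas. Its lesioned array was below the control on day 5 alone. The fitted values of the 7 ran from -0.01 to 0.29, with unadjusted p under 0.05 for cct4, cct5 and cct6a (limma adjusted p = 0.184, 0.258 and 0.125). The partner gene tcp1, which encodes the remaining subunit, was at 0.32 ± 0.11 (adjusted p = 0.112) with 0.75 on day 2.

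None of the cytosolic DnaJ and FKBP genes was called. The fitted change was above 0 in 4 of the 12 tested cytosolic DnaJ genes and 1 of the 5 FKBP genes, against 48.2% of all probe sets. With array medians set equal it was above 0 in 2 and 1, against 33.2% of all. The calcium channel partner fkbp1b had signals of 6395, 4699, 5871, 5782 and 7988 in controls and 5406, 2970.4, 4519.9, 5319.8 and 6198 in lesioned retinas. The lesioned array was lower on 5 of 5 days, with the groups overlapping, and the fitted -0.35 ± 0.10 missed the threshold (adjusted p = 0.0604). With array medians set equal it fell by 0.43 (adjusted p = 0.0239). With the GAPDH ratio of each array as a covariate fkbp1b was at -0.19 ± 0.15 (limma adjusted p = 0.902). For dnajb6a, which keeps aggregation-prone proteins soluble, the fitted value was -0.37 ± 0.12 (adjusted p = 0.102), and -0.44 with array medians set equal (adjusted p = 0.0471). The GAPDH covariate gave -0.25 ± 0.19 for dnajb6a (limma adjusted p = 0.894). Its other, dimmer probe set was at -0.16 ± 0.11 (adjusted p = 0.501), with 0.10 on day 3 against -0.68 for the first. The size of the fall thus differed between probe sets. The cysteine string protein family gene dnajc5ga was lower on all 5 days at -0.16 to -0.38 (fitted -0.26 ± 0.09, adjusted p = 0.127). Both fkbp1b and dnajc5ga were also lower in brain than in retina, and rod genes fell in the same lesioned arrays (given with the cell markers). Whether these values are linked was not tested.

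ER members had the highest median of the 3 compartments. The median fitted change was 0.18 over 19 tested ER genes, against 0.025 over 37 cytosolic and 0.028 over 9 mitochondrial ones and -0.008 over all probe sets. The ER median was 0.11 over the same genes with array medians set equal, 0.12 on days 3, 5 and 7 and 0.30 on days 2 and 14. Fitted values were positive in 16 of 19 ER genes (48.2% of all probe sets), and in 14 with array medians set equal (33.2% of all). Among the 16 was fkbp9, which the filter kept through its lesioned mean alone, so its sign gives no support. By day the ER median was 0.35, 0.15, 0.17, 0.005 and 0.12 on days 2, 3, 5, 7 and 14, and 17 of 19 genes were above 0 on day 2. Day 7 had 10 of 19 above 0 and a median of -0.09 with array medians set equal. These medians are descriptions over genes that share arrays, and only calr3a was called among ER genes.

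**Figure D2:**
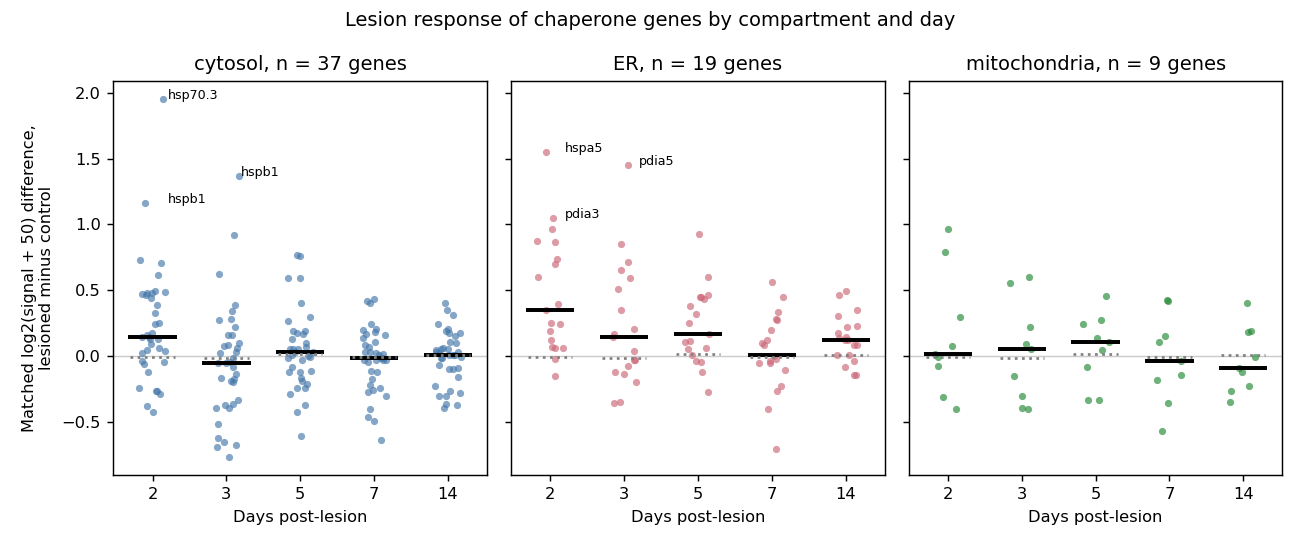
Matched difference in log2(signal + 50) of each tested member by day, in cytosol, ER and mitochondria. Points are genes, black bars the compartment median and dotted grey bars the median of all probe sets; the ER median is 0.35 on day 2, and the labelled genes are those above 1.

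The ER HSP70 gene hspa5 encodes BiP, the main ER chaperone and a sensor partner of the unfolded protein response. It read 491, 1213, 1216, 1331 and 447 in controls and 1530.4, 1187, 1180.3, 1294 and 651 in lesioned retinas on days 2, 3, 5, 7 and 14. The lesioned array was far above its control on day 2 (1.55), above it on day 14 (0.50) and just under it on days 3, 5 and 7 (-0.03 to -0.04). Controls of block 2 all exceeded those of block 1, as for hsp70.3. The fitted mean did not pass (0.39 ± 0.19, adjusted p = 0.298).

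Its exchange factor hyou1 showed another course, with controls at 538, 636, 539, 418 and 633 and lesioned arrays at 1026, 1186, 610.1, 588 and 638. The difference was 0.87 on day 2 and 0.85 on day 3, and 0.01 on day 14 (fitted 0.47 ± 0.13, adjusted p = 0.0613). The disulfide isomerase pdia3, which works with calreticulin, read 632, 881, 752, 818 and 659 in controls and 1366, 1274, 1059, 868 and 774 in lesioned retinas. Every lesioned array was above its own control, by 1.05 on day 2 and by 0.08 on day 7, and the fit gave 0.47 ± 0.13 (adjusted p = 0.0564). The prolyl isomerase fkbp9 was dim, at 64 to 131 in controls and 113 to 287 in lesioned retinas, with differences of 0.97 and 0.93 on days 2 and 5 (fitted 0.54 ± 0.15, adjusted p = 0.0589). Without day 14 hyou1 and pdia3 passed with hspb1 and calr3a, at adjusted p of 0.0200 and 0.0451. With any other day left out neither hyou1 nor pdia3 passed (limma adjusted p = 0.0802 to 0.217 and 0.0689 to 0.218). With the GAPDH ratio as a covariate hyou1 was at 0.35 ± 0.21 and pdia3 at 0.55 ± 0.21 (limma adjusted p = 0.826 and 0.516). Without day 14 fkbp9 passed too (adjusted p = 0.0238). It was the 1 member kept by the filter through its lesioned mean alone (187 against 110.5 in controls), so its p-values give no support.

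The BiP partner dnajb11 was at 0.74 and 0.65 on days 2 and 3 and at 0.07 to 0.20 later (fitted 0.36 ± 0.12, adjusted p = 0.117). The ER HSP90 gene hsp90b1 was at 0.70 on day 2 and -0.35 on day 3 (fitted 0.16 ± 0.13). All 5 tested PDI genes had positive fitted values, 0.15 to 0.47, also under both other scalings. Second probe sets were at 0.04 ± 0.14 for pdia5 and -0.02 ± 0.14 for pdia7. The shared direction thus rests partly on the choice of probe set. The lectin canx was at 0.20 ± 0.10 (adjusted p = 0.295). The calreticulin gene calr was at 0.08 ± 0.11 (adjusted p = 0.770). Its other probe set was at 0.30 ± 0.11 (adjusted p = 0.164), with differences of 0.05 to 0.48 by day. Neither was called and the probe sets differed, so whether calr moved like calr3a is unsettled. At the low end were dnajb12a (-0.17 ± 0.13), fkbp2 (-0.07 ± 0.10) and dnajc3b (-0.02 ± 0.11).

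**Figure D3:**
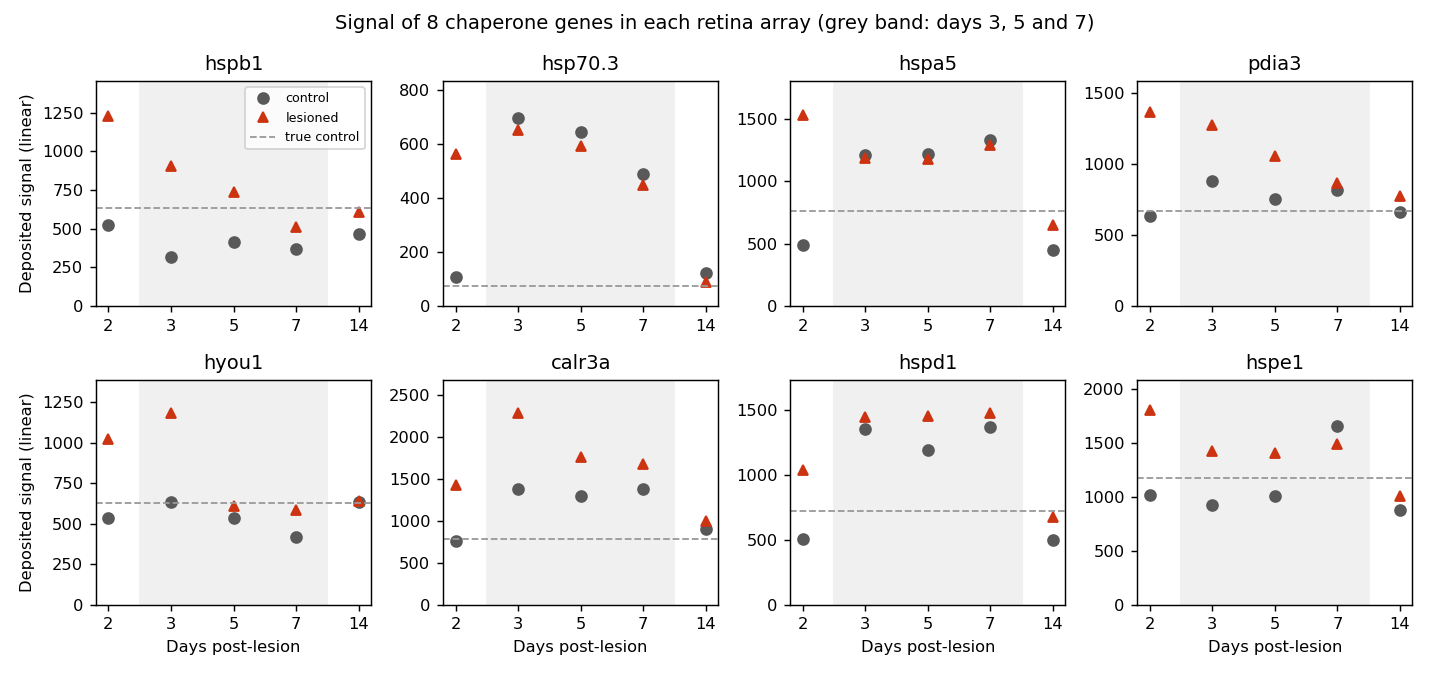
Deposited signal of 8 members (linear axes from 0) in control (circles) and lesioned (triangles) retinas by day, with the true control retina as a dashed line. Grey bands mark days 3, 5 and 7, which form array block 2; hsp70.3 reads 562 in the lesioned retina of day 2 against 108 in its control.

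Mitochondrial members split by kind. The chaperonin pair hspd1 and hspe1, the HSP60 barrel and its HSP10 lid, had differences of 0.97 and 0.79 on day 2. Signals of hspd1 were 505, 1348, 1193, 1365 and 498 in controls and 1034, 1442, 1455, 1476 and 676 in lesioned retinas. Its lesioned array was higher on 5 of 5 days, most on days 2 and 14, and the fit was 0.37 ± 0.12 (adjusted p = 0.115). For hspe1 the lesioned array was below its control on day 7 (1494 against 1656) and above it on the other days (fitted 0.38 ± 0.13, adjusted p = 0.109). The matrix HSP70 hspa9 was at 0.08 ± 0.11. The 6 mitochondrial DnaJ genes had fitted values of -0.31 to 0.03, with dnaja3a, an HSP70 partner of the matrix, the lowest (-0.31 ± 0.11, adjusted p = 0.122), dnajc4 at -0.14 ± 0.13, dnajc30b at -0.05 ± 0.13 and dnaja3b at 0.03 ± 0.11. The filter kept dnajc4 through its control mean alone (133 against 113 in lesioned retinas), which favours a negative value. On day 14 none of the 6 DnaJ genes was above its control.

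Day 2 held the largest differences. On that day 49 of 65 members were above 0, with a median of 0.18, against 49.1% of all probe sets and a median of -0.005. The count was 49 after quantile scaling and 47 with array medians set equal. A difference of 1 or more on the log2 scale was seen in 4 of 65 members (hsp70.3, hspa5, hspb1 and pdia3) and in 1.31% of all probe sets, a size chosen after the values were seen. On days 3, 5, 7 and 14 the members above 0 numbered 32, 41, 32 and 39 of 65 (48.8%, 51.7%, 49% and 51.7% of all probe sets), with medians of -0.01, 0.055, -0.01 and 0.03. Setting array medians equal moved the median of all probe sets from 0.013 to -0.118 on day 5 and from -0.008 to -0.112 on day 7. The members' medians then were -0.07 and -0.12.

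Each lesioned array was also set alone against the 6 intact retinas. The shares of all probe sets printed for these fits are those past the adjusted threshold. No share at an unadjusted p is given, so the member counts at an unadjusted p have no share to be set against. Limma called 0 members on each of the 5 days, with 6, 9, 1, 3 and 0 at an unadjusted p under 0.05 on days 2, 3, 5, 7 and 14. All probe sets gave 0.0538%, 0%, 0.0108%, 0% and 0%. With the array block as a term hsp70.3 rose on day 2 (2.03 ± 0.27 SE, limma adjusted p = 0.0174), where 0.237% of all probe sets were called. In the fit without that term it was 0.97 ± 1.02 (adjusted p = 0.932), with intact signals of 102 ± 24.6 in block 1 and 609 ± 108 in block 2 (SD, n = 3 each). On day 3 the block term gave 1 member, pdia5 (1.57 ± 0.22, adjusted p = 0.0451; 0.108% of all probe sets). Its signal was 803 in the lesioned retina of day 3 and 195 to 335 in the other 10 retinas. A second probe set of pdia5 showed no such value (-0.13 on day 3, against 1.45 for the first), so that call rests on 1 probe set on 1 array. On days 5, 7 and 14 the block term gave no called member, where 0.086%, 0.0538% and 0% of all probe sets were called.

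The change of the lesion difference with log2 of the day was tested in 1 fit over all probe sets. Limma called 0 members, and 0.108% of all probe sets. The coefficient was below 0 in 44 of 65 members and in 47.8% of all probe sets, and the lowest adjusted p among members was 0.656. Of the 6 members at an unadjusted p under 0.05 all had negative coefficients: hsp70.3 (-0.63 ± 0.19 per doubling of the day), hspb1 (-0.37 ± 0.11, adjusted p = 0.782), calr3a (-0.27 ± 0.10), hyou1, pdia3 and hspe1. For this fit the share of all probe sets at that unadjusted p is not given. Days 3, 5 and 7 lay in 1 array block and days 2 and 14 in the other, so a course over time was read partly across blocks.

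Partner genes outside the family patterns were listed too. Of 23 tested heat shock factor targets and cytosolic co-chaperones 2 rose and 0 fell, where 3.56% of all probe sets rose. The 2 were vcp, an ATPase that pulls ubiquitin-tagged proteins out of membranes and complexes (0.44 ± 0.10, adjusted p = 0.0208), and pfdn4, a subunit of prefoldin, which hands actin and tubulin to CCT (0.42 ± 0.10, adjusted p = 0.0384). The list median was 0.096. The regulators hsf1 and hsf2 were at 0.08 ± 0.11 and -0.07 ± 0.10. Of 29 ER stress and folding genes limma called 0 (median 0.105), and the smallest p-values belonged to ssr4 of the translocon complex (0.31 ± 0.10, adjusted p = 0.0952) and the prolyl isomerase ppib (0.29 ± 0.11). Its regulator xbp1 had a difference of 0.95 on day 2 and of -0.07 to 0.31 later (fitted 0.25 ± 0.13, adjusted p = 0.365). Of 21 mitochondrial import and quality control genes 0 were called, with a median of -0.017.

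Markers of other cells moved in the same lesioned arrays. Of 7 immune markers 5 rose and 0 fell, with a median of 0.93, and their summed signal was 1804 to 4385 in controls and 2435 to 9757 in lesioned retinas. The median of that list was highest on days 2 and 5 (1.14 each) and lowest on day 14 (0.44). On day 2 the 5 that rose were at 1.13 to 1.86, whereas cd74a (-1.61) and cd74b (-0.70) were lower than in the control. Of 7 Müller glia markers 3 rose (median 0.35), 4 tested erythrocyte markers had a median of 0.54 with 0 called by limma, and 2 of 3 rod markers fell (median -0.43). Both measured lens markers were under the filter, with a summed signal of 104 to 220.5 in day controls and lesioned retinas. The share of these cells in the rise of hspb1 and calr3a, or in the values of fkbp1b and dnajc5ga, was not tested.

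Intact retinas themselves differed between the array blocks in many members. All 3 intact retinas of block 2 were above all 3 of block 1 in 24 of 65 members (36.9%; 22.3% of all probe sets), and the reverse held in 15 (23.1%; 31.9% of all). The HSP110 family gene hspa4l read 1887, 1269.5 and 841 in the true control and the controls of days 2 and 14, and 9209, 8200.1 and 6846 in those of days 3, 5 and 7. The groups did not overlap, with a difference of 2.62 (log2). Also higher in block 2 were hsp70.3 (2.12), cct4 (1.20), hspd1 (1.13), hspa5 (1.11), dnaja2b (0.81) and fkbp1aa (0.77). All 7 CCT subunits were on that side, with a median of 0.70. All 6 mitochondrial DnaJ genes were on the other side, with a median of -0.74, among them dnajc19, part of the import motor (-1.13), and dnajc4 (-1.07). Day and block cannot be told apart here. Other probe sets of cct2, dnaja2b, hspa9 and hsp90aa1.2 had block differences of opposite sign to the first, as in dnaja2b (0.81 and -1.56), so a difference between blocks is that of a probe set.

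**Figure D4:**
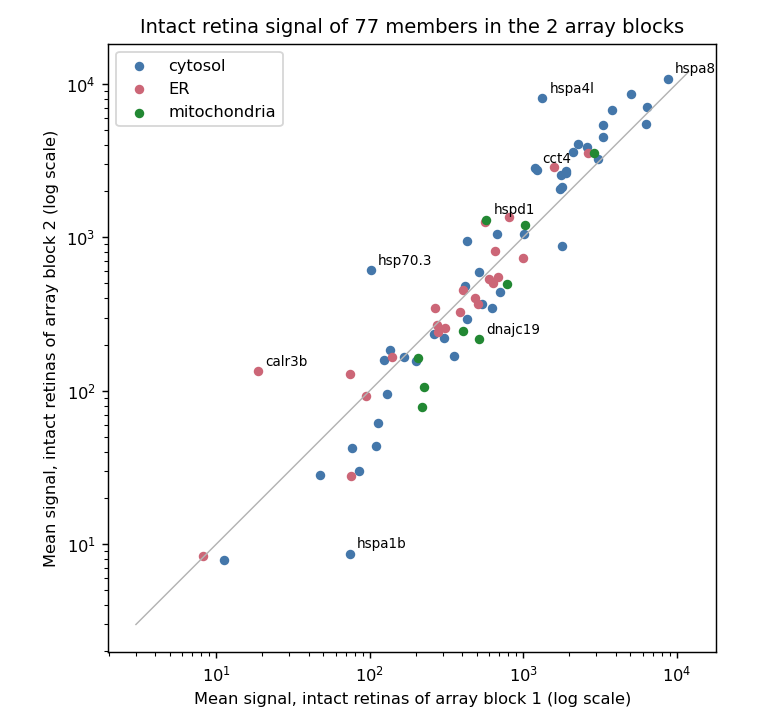
Mean signal of the 77 members in the 3 intact retinas of array block 1 (horizontal, log scale) and of array block 2 (vertical, log scale), coloured by compartment. The line marks equal signal; hspa4l and hsp70.3 lie far above it and dnajc19 below it.

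In brain against intact retina the clearest member was hspa8b, an HSP70 gene named for its likeness to hspa8. It read 1014 in brain and 99.5, 136, 147, 156, 175 and 138 in the true control and the controls of days 2, 3, 5, 7 and 14. Brain was above all 11 retinas, and against the 6 intact retinas the difference was 2.48 ± 0.29 (SE; limma adjusted p = 0.00105). The calreticulin gene calr passed too, at 1.35 ± 0.35 (adjusted p = 0.0458), with 1162 in brain and 295 to 574 in intact retinas. Its call was lost under 8 of 14 alternatives, at adjusted p of up to 0.0951. These 2 of 63 tested members (3.17%) stood against 11.5% of all probe sets. Probe sets had been chosen for their retina signal, which can favour retina.

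Since brain lay in block 1, the 3 intact retinas of that block gave the closer comparison. There 15 of 62 members (24.2%) differed, 11 higher and 4 lower in brain, against 28.7% of all probe sets (16.7% higher and 12% lower). With the 6 intact retinas and the block as a term 12 of 63 were called, against 24.3% of all probe sets. In that fit hspa12a, hsp90ab1, hsp90b1 and dnajb6a lost the call they had against block 1 (adjusted p = 0.142, 0.107, 0.0692 and 0.200), and dnajc12 gained one (adjusted p = 0.0445). The highest against block 1 was hspa8b (2.62 ± 0.22). Its block 1 retina mean of 124.5 was under the filter, so it was tested only through its brain signal of 1013.5. Its p-value in this comparison gives no support. The mitochondrial lid hspe1 was at 1.09 ± 0.23 and the ER genes calr, pdia3 and hsp90b1 at 1.14 ± 0.26, 0.93 ± 0.19 and 0.74 ± 0.22. Others higher in brain were the nuclear prolyl isomerase fkbp3 (0.92 ± 0.25), fkbp1aa (0.88 ± 0.16), dnajb6b (0.87 ± 0.22), the atypical HSP70 gene hspa12a (0.71 ± 0.21), hsp90ab1 (0.67 ± 0.16) and dnajc18 (0.65 ± 0.20). Adjusted p of these 10 lay between 0.00636 (fkbp1aa) and 0.0471 (dnajc18). The DnaJ gene dnajc12, a partner of aromatic amino acid hydroxylases in mammals, was at 1.09 ± 0.36 and did not pass against block 1 (adjusted p = 0.0616), but passed with the block as a term. It read 462 in brain, 311 in the true control retina and 140.5 to 171 in the day controls.

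Lower in brain was dnajb1b, an HSP70 partner, with 141 in brain against 657, 599 and 612 in the true control and the controls of days 2 and 14. Brain was below all 11 retinas, and the difference was -1.82 ± 0.19. The brain signal of dnajb1b was under the filter, so it was tested only through its retina signal. Its p-value gives no support. Next came fkbp1b (-1.23 ± 0.29, adjusted p = 0.0177), with 2602 in brain against 4638, 6395 and 7988. For dnajc5ga the difference was -1.22 ± 0.35 (adjusted p = 0.0372), with 924 in brain against 3111, 1597 and 2172. The last was dnajb6a (-0.74 ± 0.23, adjusted p = 0.0474, lost with the block as a term), whose other probe set was higher in brain by 0.56 (adjusted p = 0.103). Below these in size and not past the threshold were hsp90aa1.2 (-0.68 ± 0.28) and hspb6, a small heat shock protein (-0.55 ± 0.40). The inducible hsp70.3 read 43.1 in brain, under all 11 retinas, and was below the filter of the comparison with the block 1 retinas alone. Against the 6 intact retinas it was at -1.75 (adjusted p = 0.360), and at -0.69 ± 0.27 with the block as a term (adjusted p = 0.0973).

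By compartment, 15 of 17 tested ER genes and 3 of 9 mitochondrial genes were above 0 in brain against block 1, and 24 of 36 cytosolic ones (54.4% of all probe sets). With array medians set equal the ER count was 14 of 17. Brain was above all 11 retinas in 11 members (17.5%; 27.1% of all probe sets) and below them in 8 (12.7%; 17.3% of all). The CCT subunits lay between -0.20 and 0.36 with none called. Called higher in brain against block 1 were 6 of 7 immune, 2 of 4 erythrocyte and 4 of 7 Müller glia markers, with 2 glial markers lower. Of all probe sets 16.7% were called higher and 12% lower in that comparison. The part of these markers in the brain differences of the members was not tested.

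**Figure D5:**
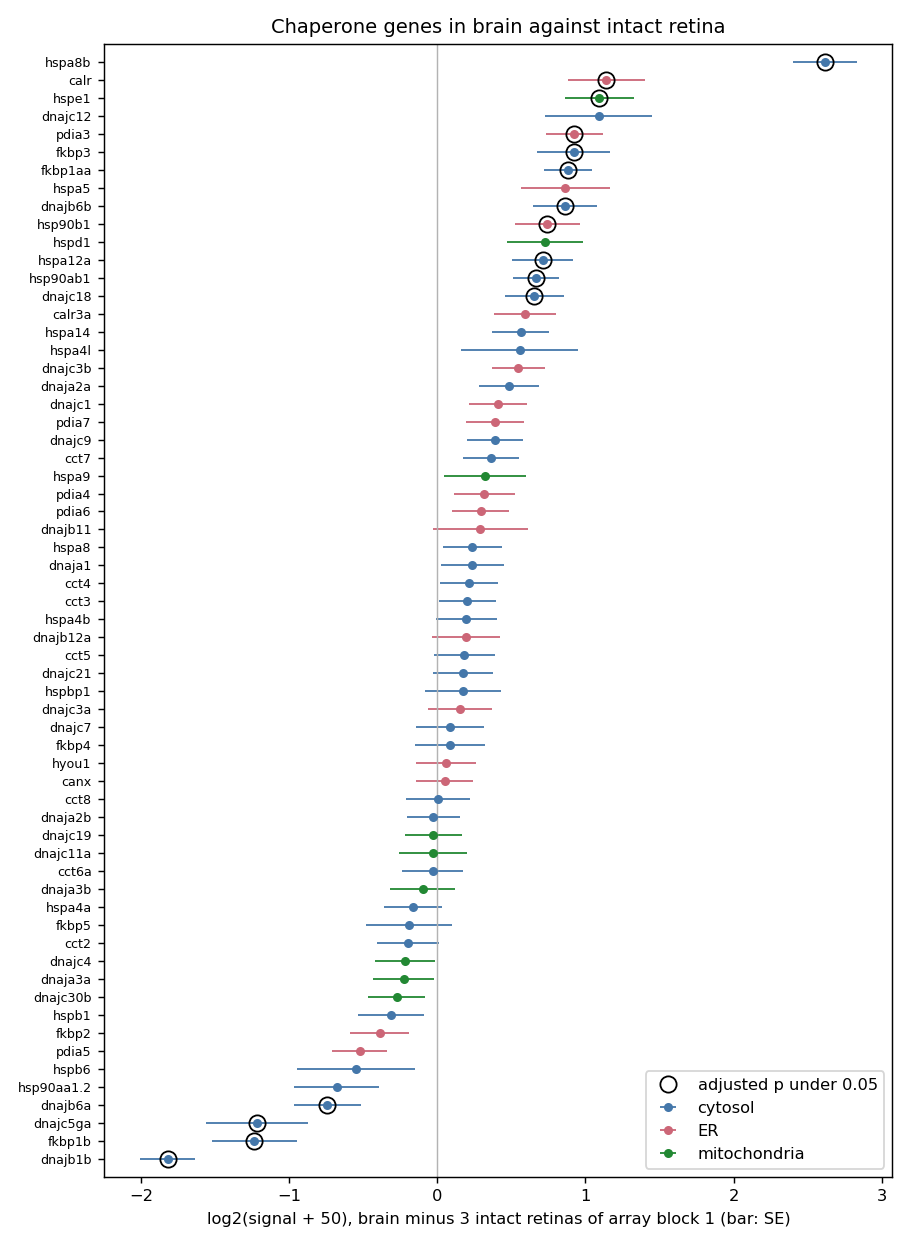
Difference in log2(signal + 50) between the brain array and the 3 intact retinas of array block 1 for the 62 members tested, coloured by compartment, with the SE as a bar. Circled points have a limma adjusted p under 0.05. The highest in brain is hspa8b at 2.62 and the lowest dnajb1b at -1.82, each kept by the filter through 1 tissue alone.

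The filter left out 12 members in the lesion comparison: calr3b, fkbp10b, fkbp14 and pdia2 of the ER, and dnajb1a, dnajc17, dnajc24, dnajc5gb, fkbpl, hsp90aa1.1, hspa1b and hspb8 of the cytosol. They were dim, as pdia2 with 2.6 to 19.7 in all retinas. The small heat shock protein hspb8 read 34.2, 46.4, 69.6, 68.8 and 222 in controls and 159, 95.3, 118, 108 and 205 in lesioned retinas on days 2, 3, 5, 7 and 14. It was higher after the lesion on days 2 to 7 and lower on day 14, and with no filter it was not called. Of the 11 members with several probe sets, fkbp1aa gave like values from both (0.11 ± 0.09 and 0.11 ± 0.10), while pdia5 (0.44 and 0.04) did not.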

How the data were processed

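The deposited values are Affymetrix signal intensity per probe set on a linear scale, made with GCOS per the submitters' processing notes, which name no version. The mean after trimming 2% of probe sets at either end was 499.8 to 500.4 on every array, so arrays had been scaled to a common mean. Median signal was 133.7 to 205.1, which with 1 array per condition limits the precision of dim genes. No column of the table was left unused, and 115 control probe sets were dropped. Genes were named by the platform annotation, and all 77 members were found in a current gene table.

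Signals were taken as log2(signal + 50), which understates changes of dim genes, and a probe set was tested only if its group means averaged above the 40th percentile. Tests used limma 3.58.1 (lmFit, eBayes with a trend) in R 4.3.3 over all 9301 probe sets, with Benjamini-Hochberg adjustment at 0.05; adjusted p-values in the text are limma's, two-sided, over all probe sets tested. The lesion fit had the day as a block (matched animals in the design text, day in the titles). In the single-day and brain fits 1 array was assumed to vary like the intact retinas. On simulated data for the lesion comparison (9301 probe sets), limma recovered 25 of 47 changes of 0.5 and 45 of 47 of 1 on the log2 scale.

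Alternatives were the pseudocount (16, 150), quantile scaling, equal array medians, no filter or one at the 60th percentile, every probe set, left-out arrays, single blocks, no pairing, the array block and the GAPDH ratio. Named genes were the called members, those with the largest fitted, day 2 and brain differences by compartment or over all members, and the 6 brightest in intact retina. Others were named after their values were seen: dnajb11, hsp90b1, hspa12a, dnajc19, canx, hspb8, the remaining CCT subunits and the partner genes. The members and lists were chosen with earlier results of these data known. Probe sets with several symbols were left out by the rule, and no sequence is printed. Plots used Python 3.11.15, pandas 2.3.3 and matplotlib 3.10.9.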

Additional observations from a re-analysis of the deposited data

Results flagged for a closer look

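In 74 groups of 5 matched differences or 6 intact retinas of the named members, 7 values lay apart from their group by Dixon's test. Chance flags about 1 in 20 groups that were not selected. Members here were named partly for large values in the same data, as hsp70.3 for its day 2 difference, so that rate does not hold for them. The difference of hsp70.3 on day 2 was 1.954, against -0.30 to -0.09 on the other days. Those of hsp90ab1 on day 5 (0.759), dnajb1b on day 3 (-0.395) and dnaja2b on day 7 (-0.306) also stood apart. Among intact retinas, log2(signal + 50) was 8.497 for dnajc12 in the true control, 13.181 for hsp90ab1 in the control of day 7 and 7.939 for pdia5 in the control of day 5. The day 5 difference of pdia5 was 0.45.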

How the results depend on the processing

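The count of members changed by the lesion was 2 under both other pseudocounts, quantile scaling, both other filters and every probe set, and 3 with array medians set equal, where hspb1, fkbp1b and dnajb6a were called. Leaving out a day gave 1 to 5, with 5 without day 14, fkbp9 among them. Without the replicate block (the pairing by day) it was 0, on days 3, 5 and 7 it was 1, on days 2 and 14 it was 0 and with the GAPDH ratio 0. In these fits limma gave 3, 12, 15 and 12 members at an unadjusted p under 0.05. For the alternative lesion fits the share of all probe sets is not given, with or without adjustment. The member counts thus have no share to be set against. Of 15 alternatives hspb1 kept its call in 12 (0.57 to 0.93) and calr3a in 6 (0.39 to 0.57). Over 14 alternatives the brain difference of hspa8b was 2.00 to 2.72 and that of calr 1.05 to 1.43. The alternatives include the block 1 comparison, where hspa8b was tested only through its brain signal. Single days had 0 calls, and 2 with the block term. The cytosolic median of 0.025 became -0.054 with array medians set equal, -0.077 on days 3, 5 and 7 and 0.113 on days 2 and 14, and the mitochondrial 0.028 became -0.117 on days 2 and 14. For named members not called as deposited, 508 of 513 lesion values under the alternatives stayed uncalled and 5 gained a call, 1 each in 5 members; of 469 brain values 441 stayed uncalled and 28 gained a call, in 12 members. None reversed while called. The causes were not tested. With 4 residual degrees of freedom in the lesion fit, changes near 0.5 were often missed in simulated data, and dim genes are limited by background.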
